A study of Mus musculus with 2 samples.

Results

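The transcripts of 10 genes that carry the death and survival signals of the TNF receptor were examined in LSK cells, a fraction of bone marrow sorted as negative for lineage antigens and positive for Sca-1 and c-kit. This fraction holds the blood stem cells and the earliest progenitors. The genes were chosen by symbol, with earlier results of these same arrays known, and each was read on every probe whose transcript identifier belongs to it. All 10 genes, of 21360 named on the arrays, have a probe, and together they have 13 probes. The probe's intensity gave the level and the scanner software's mark for a signal well above background gave detection, so the values of the members are a description and carry no test.

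Expression was measured on 2 Agilent arrays of 1 colour, 1 array for nondiabetic mice and 1 array for mice made diabetic with streptozotocin (STZ), a toxin of the insulin-producing β cells, here called STZ-DM mice. The labels give female C57BL/6J mice for both arrays, whereas the methods of the study describe male mice of that strain. The age of these mice and the time after STZ are not given in the sources used here. Each array held RNA pooled from 3 mice, amplified from 8.3 ng of total RNA, so no array shows the spread between mice. In such pools, fewer cells of a type and less RNA per cell cannot be told apart.

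When TNF binds its receptor, the adaptor Tradd and the kinase Ripk1 gather at the receptor through death domains, and Traf2 brings in the ubiquitin ligases Birc2 and Birc3. The ubiquitin chains that these ligases place on Ripk1 recruit the kinases that switch on NF-kB and with it survival genes. When that step fails, Ripk1 joins Fadd and the protease Casp8 and the cell dies by apoptosis, which Cflar restrains. When Casp8 is blocked as well, Ripk1 and Ripk3 activate Mlkl, which breaks the cell membrane in the form of death called necroptosis. Ripk1 thus serves survival and death, and blood-forming cells of mice are known to need it.

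Each array carried 59305 spots that were not controls, and the share of them well above background was 62.7% for nondiabetic and 63.9% for STZ-DM LSK cells, with no saturated spot. Intensities are given as the software corrected them. Log2 ratios are STZ-DM over nondiabetic, after the 75th percentile of each array (168 and 182) was set equal. A gene with several probes is represented by the brightest, and every probe is given for the 10 genes. Over probes printed at least 5 times, the spread of log2 ratios from spot to spot (SD) had a median of 0.25 among the dimmest probes, 0.13 among those of middle signal and 0.07 among the brightest, with all probes divided in 3 equal parts by signal. The 13 member probes were printed once each, and for them the software's own error of the intensity is given as ±. These errors were nearly the same fraction of the intensity for most member probes, so they do not measure a spread at that spot. They leave out the mice, the sort and the amplification, and with 1 array per condition no difference has a replicate check.

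All 10 genes were well above background in nondiabetic and in STZ-DM LSK cells by their brightest probe. Ripk1 and Birc2 were at least 2-fold lower in STZ-DM LSK cells, Traf2 was at least 2-fold higher, and the other 7 genes differed by less than 2-fold. Among the 15192 genes of the arrays with a ratio or a bound, 10.1% were at least 2-fold lower and 11.0% at least 2-fold higher, so the count higher was at the background and the count lower was 1 gene above it. The median log2 ratio over the 10 genes was -0.18, and over all these genes it was 0.02. By probe, 12 of the 13 member probes gave a ratio, 2 past 2-fold in each direction, where 11.2% of all probes were 2-fold higher or more and 11.2% were 2-fold lower or more.

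**Figure D1:**
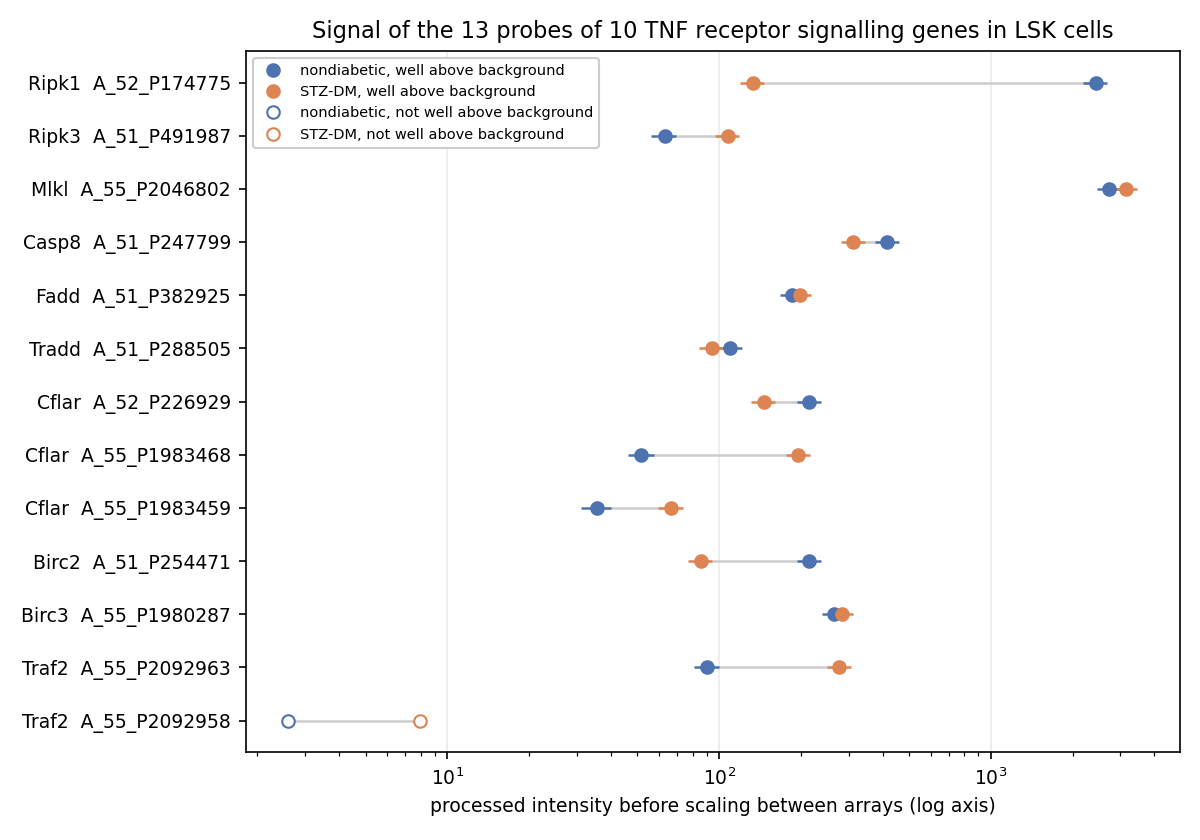
Processed intensity of each member probe on the nondiabetic array (blue) and the STZ-DM array (orange), before scaling between arrays, on a log axis. Bars give the software's error for probes well above background, and open circles mark signals that were not. The points of Ripk1 lie farthest apart, at 2430 and 133, while those of Mlkl, Fadd and Birc3 nearly coincide.

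Ripk1, the kinase on which the survival and death branches meet, had an intensity of 2430 ± 243 in nondiabetic LSK cells (probe A_52_P174775, transcript NM_009068). In STZ-DM LSK cells the same probe gave 133 ± 13.5. After scaling this was a log2 ratio of -4.31 with a software error of 0.21, or a signal 19.8-fold lower. The STZ-DM signal was thus 5.05% of the nondiabetic one and still well above background. In rank among all probes of its array, the probe went from the 96.1th to the 70.7th percentile, a change that does not depend on the scaling.

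Few probes of the arrays differed as much as that of Ripk1. Of the 32506 probes well above background on both arrays, 9 had a log2 ratio as low as or lower than that of Ripk1, itself included, and 2.15% were at least 4-fold lower. When these probes were divided in 3 equal parts by signal, the Ripk1 probe lay in the brightest part, of which 43 of 10835 probes (0.397%) were at least 4-fold lower. By brightest probe, 4 of 13467 genes reached the Ripk1 value. The spot itself was not marked as an outlier on either array. Its uncorrected median signal was 2557 and 174, its local background 31 and 28, and the 72 measured spots within 5 rows and 5 columns of it had a median log2 ratio of 0.09. No other named probe reads Ripk1, so its value rests on 1 spot per array.

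Traf2 and the ligases it carries, Birc2 and Birc3, differed in direction. Traf2, the adaptor that ties the ligases to the receptor, gave 90.5 ± 9.39 in nondiabetic LSK cells and 277 ± 27.8 in STZ-DM LSK cells (probe A_55_P2092963, NM_001290413). Its log2 ratio was 1.50 with a software error of 0.21, which is 2.82-fold higher. The other Traf2 probe (A_55_P2092958), placed on the same transcript, stayed near background on both arrays, at 2.59 and 7.93, and gives no ratio. With the normexp background correction, which adds an offset of 50, the Traf2 log2 ratio was 0.98 and just under 2-fold. Traf2 was therefore higher in direction under each setting tried, but its place past 2-fold depends on how the background is handled.

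Birc2, which encodes cIAP1, gave an intensity of 215 ± 21.6 for nondiabetic and 85.6 ± 8.79 for STZ-DM LSK cells (probe A_51_P254471, NM_007465). Its log2 ratio was -1.44 with a software error of 0.21, which is 2.72-fold lower. Birc3, which encodes cIAP2 and lies next to Birc2 on chromosome 9, had intensities of 265 ± 26.6 and 283 ± 28.4 (probe A_55_P1980287, NM_007464). Its log2 ratio was -0.02 with a software error of 0.20. The neighbouring genes of these related ligases thus differed in their ratios, by 1 probe each.

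The promoters of the 3 genes past 2-fold, and that of Birc3 as the neighbour of Birc2 with a ratio near 0, are shown so that their sequences can be set side by side. They are from RefSeq (GRCm38.p6), which held 11 promoters for 9 of the 10 genes and none for Tradd, each with 250 bases before the start and 50 after it. Each is printed 5′ to 3′ on the gene's strand. Capitals mark 5 motifs searched on both strands, which may overlap: GGGNNNTTCC (a kappa-B-like sequence), GAAANNGAAA (a pair of GAAA as in interferon response elements), GGGCGG (the GC box), TATAAA (the TATA box) and TGACG (the core of cAMP response elements). Ripk1 has a second listed promoter, and so has Birc2, which are not printed.
Ripk1, chr13:34002624-34002923, plus strand: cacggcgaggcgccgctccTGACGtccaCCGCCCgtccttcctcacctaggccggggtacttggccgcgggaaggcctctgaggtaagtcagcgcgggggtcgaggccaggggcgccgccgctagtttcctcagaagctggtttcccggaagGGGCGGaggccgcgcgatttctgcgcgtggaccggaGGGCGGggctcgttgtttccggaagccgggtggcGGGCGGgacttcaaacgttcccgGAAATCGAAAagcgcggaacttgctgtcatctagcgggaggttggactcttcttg
Birc2, chr9:7837008-7837307, minus strand: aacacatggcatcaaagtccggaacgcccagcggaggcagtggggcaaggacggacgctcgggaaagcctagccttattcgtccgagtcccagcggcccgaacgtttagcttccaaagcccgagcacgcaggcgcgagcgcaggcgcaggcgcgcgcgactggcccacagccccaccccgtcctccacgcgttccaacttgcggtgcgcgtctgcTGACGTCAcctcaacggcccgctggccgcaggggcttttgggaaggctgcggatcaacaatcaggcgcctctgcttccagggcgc
Birc3, chr9:7873121-7873420, minus strand: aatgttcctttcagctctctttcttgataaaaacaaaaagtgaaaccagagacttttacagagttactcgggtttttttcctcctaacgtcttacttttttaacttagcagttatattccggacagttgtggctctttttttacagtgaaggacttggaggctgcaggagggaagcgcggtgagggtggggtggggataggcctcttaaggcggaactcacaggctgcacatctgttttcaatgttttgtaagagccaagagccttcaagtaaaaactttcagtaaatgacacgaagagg
Traf2, chr2:25546891-25547190, minus strand: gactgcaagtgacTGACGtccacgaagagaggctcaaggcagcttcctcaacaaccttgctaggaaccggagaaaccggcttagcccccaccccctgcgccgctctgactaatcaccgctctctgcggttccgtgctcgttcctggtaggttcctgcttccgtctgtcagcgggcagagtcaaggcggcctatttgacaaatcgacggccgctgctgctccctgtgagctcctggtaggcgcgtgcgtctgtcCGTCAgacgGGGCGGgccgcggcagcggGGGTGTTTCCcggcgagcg

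The Ripk1 promoter had a GC content of 67.0% with 4 GC boxes, 1 paired GAAA and 1 TGACG. The Birc2 promoter also had a GC content of 67.0%, with TGACG on both strands in an overlapping pair. The Birc2 promoter that is not printed had 60.0% with 2 GC boxes and 1 TGACG, and that of Ripk1 had 61.7% with 3 GC boxes. The Birc3 promoter had a GC content of 43.0% and held none of the 5 motifs, while the median over all promoters was 52.7%. In the Traf2 promoter, at 64.0%, lay the only match to the kappa-B-like pattern GGGNNNTTCC among the 11 member promoters, with 1 GC box and 2 TGACG. That match lay after the start, and other forms of a kappa-B sequence were not searched. Of 32851 promoters of this length, 5.56% held the kappa-B-like sequence, 3.44% the paired GAAA, 35.7% the GC box, 13.6% the TATA box and 20.8% TGACG. These matches describe letters in a window, and the arrays did not measure binding.

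The adaptors and the protease of the apoptosis branch differed little. Tradd, the first adaptor at the receptor, gave 109.7 ± 11.25 for nondiabetic and 93.8 ± 9.71 for STZ-DM LSK cells, a log2 ratio of -0.34 with a software error of 0.21. Fadd, which bridges Ripk1 and Casp8, had intensities of 186 ± 18.75 and 198.5 ± 19.97 and a log2 ratio of -0.02. Casp8, the protease that starts apoptosis and also cuts Ripk1 and Ripk3, had intensities of 417 ± 41.7 and 312 ± 31.3. Its log2 ratio was -0.54 with a software error of 0.20, well inside 2-fold. Fadd was thus level between the arrays, and Tradd and Casp8 were lower by less than 2-fold.

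Cflar, the caspase-like protein without protease activity that restrains Casp8, was read by 3 probes that did not go the same way. The brightest (A_52_P226929, NM_207653) had intensities of 215 ± 21.6 in nondiabetic and 146 ± 14.8 in STZ-DM LSK cells, a log2 ratio of -0.67 with a software error of 0.21. A dimmer probe of the same transcript (A_55_P1983459) had intensities of 35.6 ± 4.45 and 66.7 ± 7.17, a log2 ratio of 0.79 with an error of 0.24. A probe of another Cflar transcript (A_55_P1983468, NM_009805) had intensities of 51.8 ± 5.67 and 196 ± 19.7, a log2 ratio of 1.80 with an error of 0.21. One probe was thus lower and the other two higher, and 2 probes of 1 transcript stood on opposite sides of 0. The mean over the 3 probes was 0.64, so the sign of Cflar turns with the choice of probe. Such spread was common on these arrays. Of 659 genes with at least 3 probes with a ratio or bound, 69.8% had probes on both sides of 0 and 58.6% had probes at least 2-fold apart.

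Ripk3 and Mlkl, the members of the necroptosis branch after Ripk1, were not lower. Ripk3, the kinase that joins Ripk1 and acts on Mlkl, gave 63.0 ± 6.66 for nondiabetic and 107.5 ± 10.96 for STZ-DM LSK cells (probe A_51_P491987), a log2 ratio of 0.65 with a software error of 0.21. Mlkl, which carries out the membrane damage, had intensities of 2723 ± 272 and 3145 ± 314.5 (probe A_55_P2046802). Its log2 ratio was 0.09 with an error of 0.20. Ripk3 was therefore 1.57-fold higher and Mlkl level, while the kinase upstream of both was 19.8-fold lower.

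To see how these ratios compare with those of probes of similar signal, the 32506 measured probes were divided into 20 bins by mean signal. The ratio of Ripk1 was the lowest of the 1625 probes in its bin, whose central 95% ran from -1.23 to 1.47. The other 11 member probes with a ratio, those of Birc2, Traf2 and Cflar included, lay within the central 95% of their bins. For Birc2 that range ran from -1.99 to 1.87, and 86 of its 1625 probes were as low or lower. For Traf2 it ran from -1.92 to 1.84, and 66 of 1625 were as high or higher. For the highest Cflar probe, 62 of 1626 were as high or higher. Differences of the size of Birc2 and Traf2 were thus met in other probes of their signal, and that of Ripk1 was not met in its bin. The members were chosen with earlier results of these arrays known, so these ranks are a description and carry no test.

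**Figure D2:**
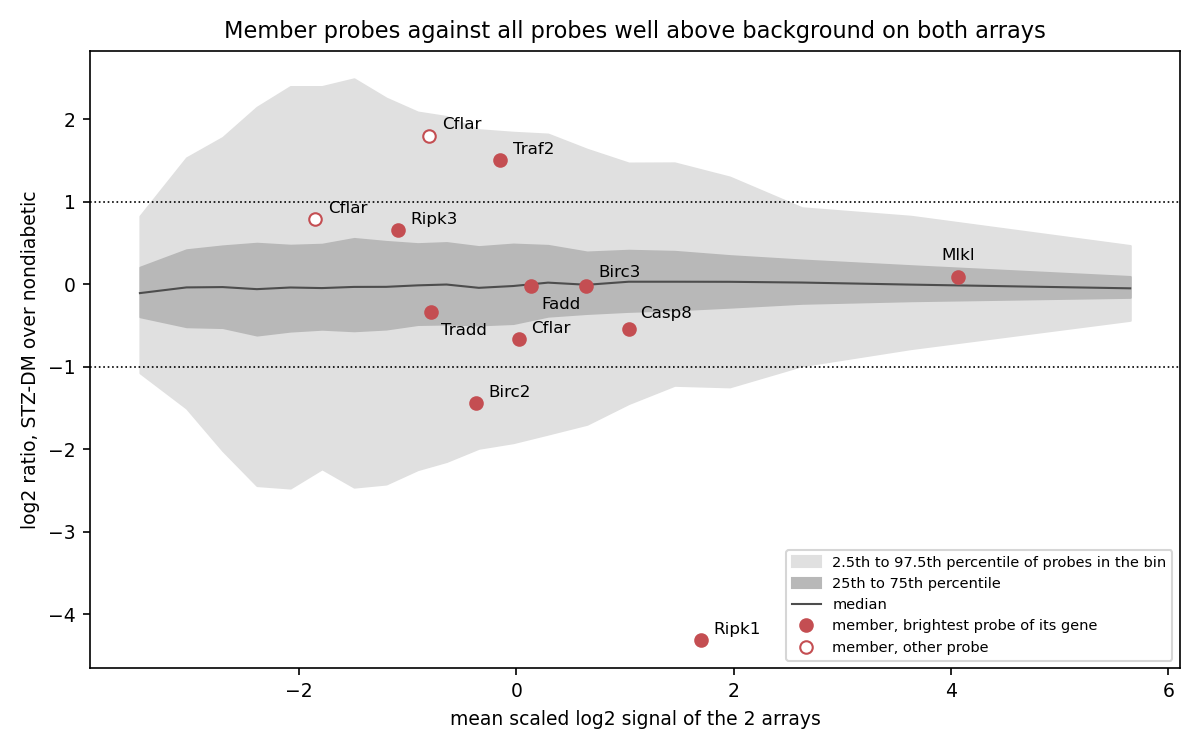
Log2 ratio of STZ-DM over nondiabetic against the mean scaled log2 signal of both arrays, with the member probes in red (open for a probe that is not the brightest of its gene). Grey bands give the central 50% and 95% of the 32506 probes measured above background, in 20 bins of signal, and dotted lines mark 2-fold. Ripk1, at -4.31, lies far below the band, and the other members lie within it.

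Further genes of the pathway were read from a list of 60 genes in 6 roles, all of which have a probe on the arrays. A ratio could be formed for 56 of them, while 1 was bright enough on 1 array only and gives a bound, and 3 were too dim on both. By brightest probe, 4 of the 57 genes with a value passed 2-fold upwards (11.0% of all genes did) and 7 passed it downwards (10.1% of all genes did). Their median log2 ratio was 0.01, with 29 genes above 0 and 28 below. Under the normexp correction no listed gene passed 2-fold upwards and 5 passed it downwards. The share of all genes past 2-fold under that correction was not computed, so these counts have no background to be read against.

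Of 8 ligands and receptors with a value, 7 had a ratio under 2-fold. Lta, the gene of the TNF relative lymphotoxin alpha, was bright enough on the nondiabetic array only, at 17.9 and 2.65, and was at least 1.93-fold lower. Tnf itself, at 6.65 and 10.1, and the death receptor Fas, at 2.22 and 5.69, were too dim on both arrays for a ratio. Tnfrsf1a, the TNF receptor that carries a death domain, had intensities of 182 and 184 and a log2 ratio of -0.10. Tnfrsf1b, the TNF receptor without a death domain, had 592 and 907.5 and a log2 ratio of 0.50. Tnfsf10, the gene of the death ligand TRAIL, had a log2 ratio of 0.78 and its receptor Tnfrsf10b one of 0.74. Tnfrsf1a was thus level between the arrays by the brighter of its 2 probes.

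The ubiquitin and kinase complex that forms around Ripk1 held 8 of the 11 genes past 2-fold and 18 of the 57 with a value. Of its 18 genes, 6 lay past 2-fold downwards and 2 upwards, where 10.1% and 11.0% of all genes did, with a median log2 ratio of -0.03. Map3k7, the gene of the kinase TAK1 that reads the ubiquitin chains on Ripk1 through its partners, went from an intensity of 412 to 96.2 by its brightest probe (A_52_P175952), a log2 ratio of -2.22. Its other probes, on another transcript, gave 0.51 and 0.33. The TAK1 partner Tab3 went from 560.5 to 188.5, a log2 ratio of -1.69, and Tab1 from 82.4 to 36.3, a log2 ratio of -1.30. Tab2, the partner most like Tab3, had a log2 ratio of 0.92, so the partners did not go the same way.

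Traf5, a relative of Traf2 that shares part of its work at the receptor, went from 186 to 48.3, a log2 ratio of -2.06 opposite in sign to that of Traf2. Rbck1, a subunit of the linear ubiquitin ligase LUBAC, went from 1074 to 533, a log2 ratio of -1.13, while the other LUBAC subunits Rnf31 and Sharpin stood at -0.25 and 0.58. Among the kinases related to IKK, Ikbke had a log2 ratio of -1.32 and Tbk1 one of 1.45. Tank, which binds both, had 1.02 by its brightest probe and -0.84 by its other probe. The core IKK genes Chuk, Ikbkb and Ikbkg, at 0.44, -0.31 and -0.64, stayed under 2-fold. Lower and higher genes were thus mixed within each of these groups.

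All 6 deubiquitinases and brakes lay between -0.66 for Tnfaip3, the NF-kB target that encodes A20, and 0.73 for Tax1bp1. Of 9 NF-kB genes, Relb passed 2-fold at 1.05, with 0.59 on its second probe, and Nfkbia, the gene of the inhibitor IkBα and an NF-kB target, stood at 0.13. Among 8 genes of apoptosis after Casp8 with a value, Dffa, which holds the DNA-cutting nuclease of apoptosis in check, fell from 102.7 to 18.97 by its brightest probe, with a log2 ratio of -2.55, and its other probes stood at -0.40 and -0.28. Of 8 necroptosis partners, Ticam1, an adaptor of Toll-like receptors that can engage Ripk3, went from 21.5 to 72.5, a log2 ratio of 1.64. Zbp1, another activator of Ripk3, stood at 0.01. Of these 8 partners 5 were above 0 and 3 below, with Pgam5 and Ppm1b lowest at -0.50.

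**Figure D3:**
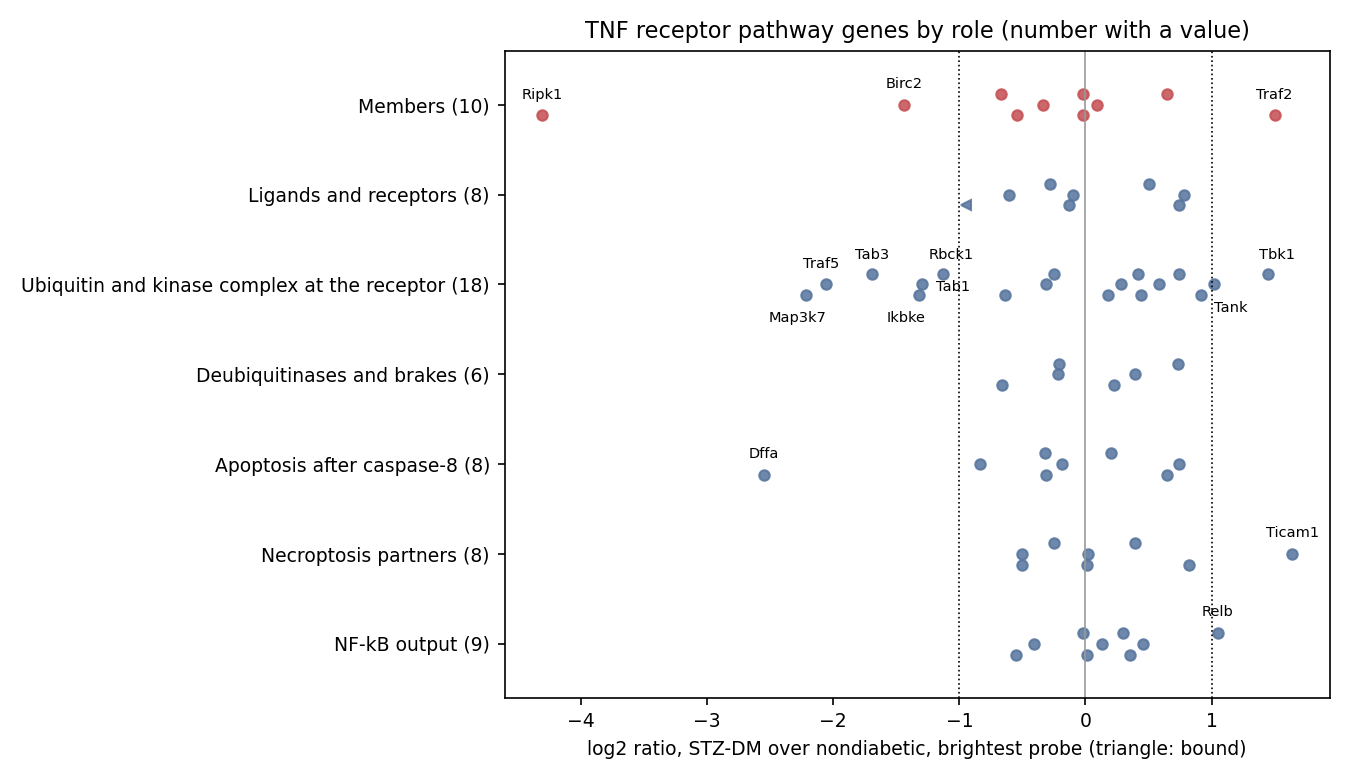
Log2 ratio of STZ-DM over nondiabetic by the brightest probe, 1 point per gene, for the 10 members (red) and the 57 further pathway genes with a value (blue), in rows by role with the number of genes in brackets. Dotted lines mark 2-fold, and genes past it are named. Of the 7 further genes past 2-fold downwards, 6 lie in the ubiquitin and kinase complex, the largest role with 18 of the 57 genes. They run from Map3k7 at -2.22 to Rbck1 at -1.13, and 2 genes of the complex lie past 2-fold upwards. The lowest further gene, Dffa at -2.55, lies in the row of apoptosis after caspase-8.

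**Figure D4:**
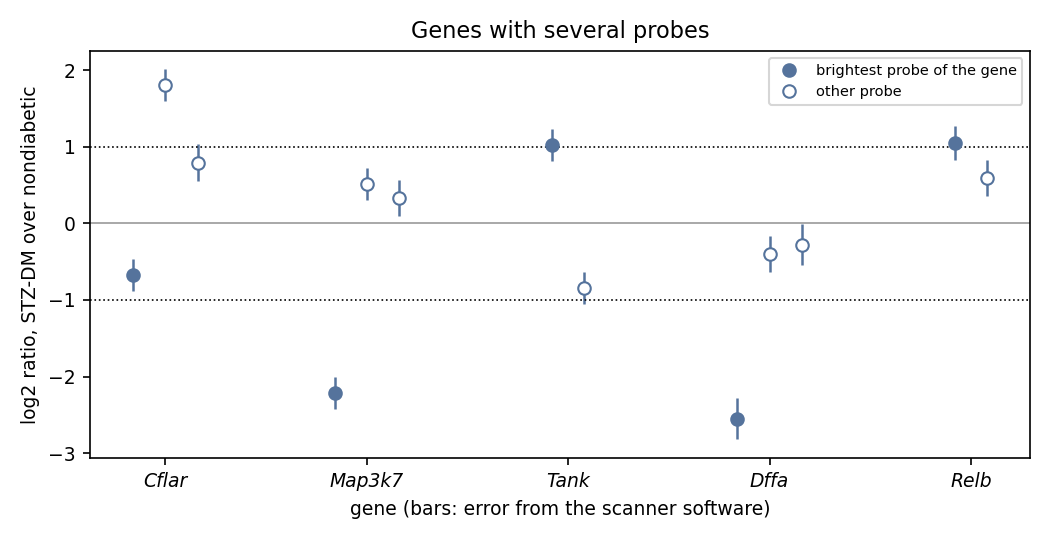
Log2 ratio of each probe for Cflar and for the pathway genes past 2-fold that have several probes with a ratio, with the brightest probe filled and the software's error as bars. The probes of Cflar, Map3k7 and Tank lie on both sides of 0, and those of Dffa and Relb on 1 side.

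The labelled cells were checked against marker genes. Kit, at 4635 and 4735, Ly6a, the gene of Sca-1, at 475 and 701, and Cd34, Flt3 and Meis1 were well above background on both arrays, with log2 ratios between -0.09 and 0.44 by brightest probe. Over all 10 stem cell markers, Mecom was 2.30-fold lower by its brightest probe, with a log2 ratio of -0.16 on its other probe, and Slamf1 was at least 2.59-fold higher. Of 40 marker genes of 7 cell groups with a value, 5 passed 2-fold upwards and 3 downwards, where 11.0% and 10.1% of all genes did. Both counts were thus near the background. Beside those named here the markers past 2-fold were Cd79a of B cells, 2.85-fold higher, S100a8 of granulocytes, 2.78-fold lower, and Cd3g of T cells, at least 2.74-fold lower. The other genes of these lists with a value stayed under 2-fold, and signs within each list were mixed. Of B cell genes with a value, the named one included, 3 were above 0 and 1 below. For granulocyte and monocyte genes it was 3 above and 6 below, and for T and NK cell genes 1 above and 4 below. Summed over its genes, and after scaling, the signal of a marker list was between 0.776 (T and NK cell) and 1.28 times the nondiabetic one, except erythroid genes at 2.16 times and stroma and endothelium at 4.28 times. The erythroid genes past 2-fold were Hba-a1, at 1984 and 4967, and Hbb-b1, at 102 and 225. In the list of stroma and endothelium, Pecam1, which blood stem cells also express, gave 162 and 936, and Vcam1, an adhesion molecule, gave 21.4 and 41.6 with a log2 ratio of 0.84, while Cdh5, Col1a1 and Pdgfra stayed near background on both. Itgam, the gene of the myeloid antigen CD11b, was well above background at 34690 and 35190 by the brightest of its 3 probes. It made up most of the summed signal of the granulocyte and monocyte list, 44490 and 43340. Of that list, 9 of 10 genes on the arrays were well above background on both, and of the T and NK cell list 3 of 6. The part of such cells in the differences of Ripk1, Birc2 and Traf2 was not tested.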

How the data were processed

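LSK cells were sorted from bone marrow after removal of dead cells, their RNA was amplified, labelled with Cy3 and hybridized to 1 array per condition. The authors deposited processed intensity values from Agilent Feature Extraction 11.5.1.1, corrected for background within each array, with the software's flags (other columns of 0 or 1) and error. They also deposited a table that equals this intensity times 1 constant per array (11.14 and 10.19). The array's grid names build mm9, and no mm9 coordinate was used. The normalization of the arrays is not given in the sources used here.

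The log2 of each intensity was set relative to the 75th percentile of its array, computed without control spots. Outlier spots by the software's marks on either array (314) were dropped and the spots of a probe averaged, which left 55661 of 55681 probes. A probe well above background on 1 array has a bound against the other array's lowest signal well above background (10.2 and 10.1), and one on neither has no ratio. Transcript identifiers matched without versions to RefSeq (GRCm38.p6) named 31845 of the 59305 spots (53.7%) and 21360 genes. The members and gene lists were chosen with earlier results of these data known. The text names the 10 members, the listed pathway genes and markers at least 2-fold different, and further listed genes for their role. No test was made with 1 array per condition, and the steps were tested on simulated data. Alternatives were normexp, quantile normalization, centring on the median, loess, dim probes kept without a filter, bounds dropped, a mean over each gene's probes and the authors' table. Python 3.11.15, numpy 2.4.6, pandas 2.3.3, matplotlib 3.10.9, R 4.3.3 and limma 3.58.1 were used. Values of a few listed genes are not reported here.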

Additional observations from a re-analysis of the deposited data

How the results depend on the processing

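Under the 8 alternatives the log2 ratio of Ripk1 lay between -4.34 and -3.82 and that of Birc2 between -1.46 and -1.03, and both stayed at least 2-fold lower in each. Traf2 lay between 0.98 and 1.52. Each of these genes has 1 probe with a ratio, so keeping dim probes, dropping bounds and averaging probes could not move its value. Centring and the authors' table shift every ratio by a constant. All 8 alternatives read the same spots and are not independent checks. Under normexp (offset 50, run on median spot signals because no mean spot signal was in the files used), the members at least 2-fold higher went from 1 to 0, the member probes from 2 to 1 and the further pathway genes from 4 to 0. The share of all genes past 2-fold was not computed under normexp, so these drops cannot be read as particular to the listed genes. The log2 ratio of Cflar reversed from -0.67 to 0.64 when its probes were averaged. The members' median lay between -0.20 and -0.02.

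No array was left out in turn, since each group has 1. No paired analysis was possible because a single array stands for each group. Both arrays lie on the same slide and were read in the same scan. The number of arrays limits the precision.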
